A study of Caenorhabditis elegans with 11 samples.

Results

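The heterochronic genes of C. elegans set which larval stage a cell behaves as. They were followed here on 11 arrays of fourth-stage larvae (L4). The group held lin-14, lin-28, hbl-1, lin-46, lin-41, lin-29, daf-12 and lin-42, taken by gene name, with earlier results of these data known. These 8 genes were read by 17 of the 22548 probe sets of the Affymetrix C. elegans array. A probe set is a group of short probes designed for 1 transcript or for several that share sequence. lin-14 had 1 probe set, and each of the other 7 genes had 2 or 3. Of the 17 probe sets, 15 (7 genes) were bright enough to be tested between strains.

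The arrays came from strains at opposite ends of DBL-1 signaling, a BMP-like pathway that controls body size. BW1940 (5 arrays, labeled dbl-1) carries the integrated transgene ctIs40, which adds wild-type dbl-1, the ligand gene, and its animals are long. LT186 (6 arrays, labeled sma-6) bears the allele sma-6(wk7), a stop codon predicted to cut the type I receptor short in its extracellular part, and its animals are small. The paper gives ctIs40 as the cosmid ZC421 together with pTG96 (sur-5::gfp), and names no promoter for its dbl-1. The study's mutants derive from N2, and no wild-type array entered the comparison. Each population was synchronized as starved L1 larvae, raised on OP50 bacteria at a common temperature and scored by eye as L4. RNA was taken from whole animals. Each array is labeled a biological replicate. The paper's results speak of 5 independent experiments, while its methods give 5 BW1940 and 6 LT186 samples.

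In the early larva, the nuclear protein LIN-14, the RNA-binding protein LIN-28 and the zinc finger factor HBL-1 keep lateral hypodermal (seam) cells in early fates, and microRNAs of the lin-4 and let-7 families shut them off in turn. Late in larval life let-7 represses lin-41, which encodes an RNA-binding TRIM protein, and so releases the transcription factor LIN-29, which drives the change to adult hypodermis at the last molt. DAF-12, a nuclear receptor for the steroid dafachronic acid, ties this order to growth conditions, and LIN-42, related to Period proteins, cycles with the molts. The L4 stage is where this last switch is prepared. Hermaphrodites also make their sperm during L4.

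Each value below is an intensity (linear scale), which the authors computed and scaled to 100 on each array. The median of all probe sets was 36.96 to 39.96 on BW1940 arrays and 34.2 to 38.8 on LT186 arrays. The labels were checked on sma-6, whose brighter probe set averaged 102 ± 19.6 in BW1940 (SD, n = 5) and 31.3 ± 2.79 in LT186 (SD, n = 6), with no overlap. The probe sets of dbl-1 averaged 79.4 and 47.0 in BW1940, against 57.3 and 22.1 in LT186, ratios of 1.38 and 2.13. They did not pass the test after adjustment (adjusted p = 0.318 and 0.117, unadjusted p = 0.0591 and 0.00367, limma). The exact two-sided permutation p was 0.0801 and 0.0173. The paper reports the second ratio and takes it as fitting overexpression of dbl-1. The arrays differed within a strain in a score of 43 genes expressed in sperm (mean log2 value). This sperm score was 7.04, 8.92, 7.82, 9.29 and 9.15 in BW1940 replicates 1 to 5, and 9.17, 5.61, 9.20, 5.32, 9.40 and 9.38 in LT186 replicates 1 to 6. Of all pairs of arrays, LT186 replicates 2 and 4 differed least (median absolute log2 difference 0.114, next pair 0.180). They were kept as 2 samples, and results that move when they are averaged are given in the closing section. No gene of the sperm, oocyte and adult, germ line, hypodermis, muscle or intestine marker lists lay at or below 10 on all arrays.

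No heterochronic gene passed the test between the strains. Strain differences were tested with limma on log2(intensity + 10), values below 0 being set to 0, and p-values were adjusted over all 18801 probe sets tested. Fold changes are log2 values of BW1940 over LT186. By limma, 0 of the 15 probe sets passed an adjusted p of 0.05, against 1.02% of all probe sets tested, and 0 passed by an equal-variance test run on each probe set alone, without the shared variance of limma. At an unadjusted p under 0.05, 1 of 15 passed (6.67%), against 16.7% of all probe sets. Of the 15 fold changes, 7 were positive and 8 negative, and their median was -0.02, against 0.08 over all probe sets. Adjusted p-values ran between 0.142 and 0.98, the second lowest being 0.523. The spread inside a strain was wider than for most genes. The within-strain SD on the log2 scale had a median of 0.442 over the 15, against 0.314 over all probe sets, and 12 of 15 lay above that value.

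**Figure D1:**
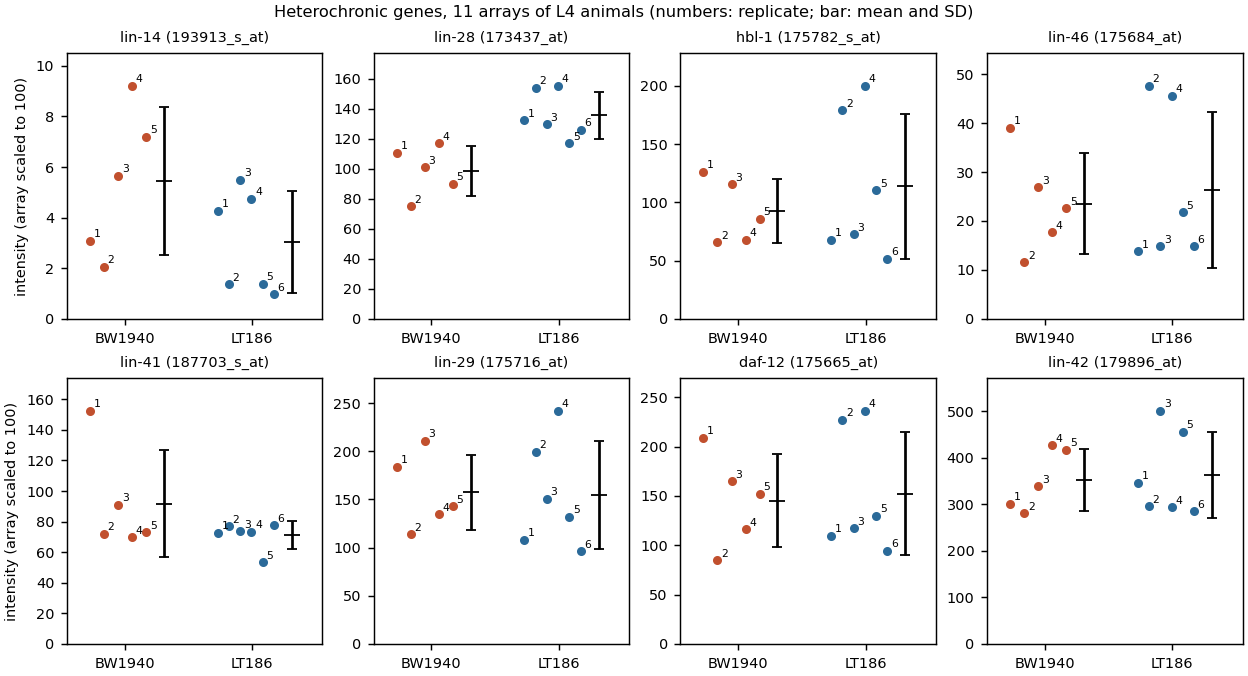
Intensity (vertical axis, arrays scaled to 100) of the brightest probe set of each heterochronic gene on every array, BW1940 left and LT186 right, with replicate numbers beside the points and the mean with its SD as a bar. For lin-28 every BW1940 array lies below every LT186 array (116.84 against 116.99 at the nearest), and the strains overlap for the other 7 genes. In LT186, replicates 2 and 4 lead for hbl-1, lin-46, lin-29 and daf-12.

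lin-28 stood nearest to a strain difference, at a lower level in BW1940. LIN-28 binds RNA, blocks the maturation of let-7 and holds back late fates. Its brightest probe set (173437_at) gave 110.51, 74.89, 100.78, 116.84 and 89.73 in BW1940. In LT186 it ranged between 116.99 and 155.20 with a median of 131. The highest BW1940 array thus lay just below the lowest LT186 array. The strains did not overlap for 1 of the 15 probe sets (6.67%), against 4.41% of all probe sets tested, or 1.46% with BW1940 below. The means were 98.5 ± 16.7 in BW1940 and 136 ± 15.5 in LT186 (SD, n = 5 and 6), a ratio of 0.727. The log2 fold change of -0.43 (standard error 0.13, 95% interval -0.72 to -0.14) had an unadjusted p of 0.00688 and missed the threshold after adjustment (adjusted p = 0.142, limma). The exact two-sided permutation test over the 462 ways to divide the arrays gave p = 0.00216, the smallest it can give. This probe set was the steadiest of the 15, with a within-strain log2 SD of 0.191.

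The dimmer lin-28 probe sets did not show the same order. 191973_s_at carries a suffix that marks probes several transcripts may share, as do probe sets of every other member but lin-42. It gave 15.75, 25.88, 21.65, 10.27 and 31.76 in BW1940, and between 9.69 and 20.03 with a median of 16.2 in LT186. Its fold change had the opposite sign (0.25, standard error 0.19, adjusted p = 0.582), and the strains overlapped. Across the 11 arrays it ran against the brightest probe set (Pearson r = -0.67, Spearman rho = -0.52). 172855_x_at, a set whose probes may match other sequences, lay under the filter, with 4.29 to 10.84 in BW1940 and 4.23 to 9.26 in LT186 (exact permutation p = 0.455, two-sided). The lower values of lin-28 in BW1940 thus rest on 1 of its 3 probe sets.

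A germ line marker score moved in the same direction as lin-28. All 8 germ line genes had negative fold changes (median -0.35) and none passed the test. Their mean log2 value was 7.57 to 7.98 on BW1940 arrays and 7.84 to 8.49 on LT186 arrays (exact permutation p = 0.0433, two-sided, 1 of 6 marker lists so tested). An intestine score of 5 genes ran the other way, at 9.08 to 9.36 on BW1940 arrays and 8.40 to 8.99 on LT186 arrays (exact permutation p = 0.00433). Adjustment over the 6 lists by Benjamini-Hochberg gave 0.13 for the germ line score and 0.026 for the intestine score. In RNA of whole animals, fewer cells of a type and less RNA per cell cannot be told apart, and the part of either score in the lin-28 values was not tested. With the sperm score as a covariate the adjusted p of lin-28 was 0.0539, a setting under which 1612 of all 18801 probe sets passed, against 191 without it. Without the 3 arrays of lowest sperm score (BW1940 replicate 1, LT186 replicates 2 and 4) the adjusted p of lin-28 was 0.241. Over all settings tried its adjusted p ran between 0.0539 and 0.543.

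**Figure D2:**
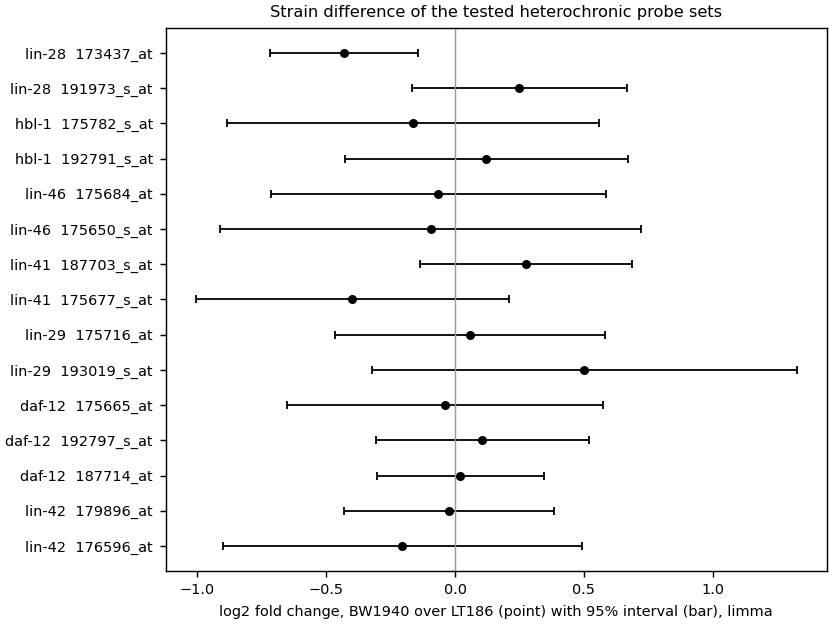
Log2 fold change of BW1940 over LT186 (horizontal axis; point) with its 95% interval (bar, limma) for the 15 tested probe sets. Only the interval of lin-28 173437_at (-0.72 to -0.14) lies off 0, and none of the 15 passed an adjusted p of 0.05.

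The only lin-14 probe set gave almost no signal at L4. This probe set (193913_s_at) read 3.09, 2.06, 5.66, 9.21 and 7.19 in BW1940 and between 0.97 and 5.49, with a median of 2.83, in LT186. With no array of another stage, little lin-14 RNA and a probe set that reads it poorly cannot be told apart. No array reached 10, so that it was left out of the test. The strains overlapped (exact permutation p = 0.152, two-sided). A fit without a filter put it at 0.24 on the log2 scale (standard error 0.15, adjusted p = 0.479).

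hbl-1 varied more inside a strain than between strains. HBL-1 is the Hunchback-like repressor of late fates that the let-7 family acts on. The brightest probe set (175782_s_at) gave 126.22, 65.83, 115.46, 68.05 and 86.11 in BW1940, where replicates 1 and 3 were highest. LT186 ranged between 51.76 and 200.23 with a median of 91.6. Its replicates 2 and 4, at 179.25 and 200.23, stood above all other arrays, and the highest LT186 value was 3.87 times the lowest. Means were 92.3 ± 27.4 in BW1940 and 114 ± 62.3 in LT186 (SD, n = 5 and 6), with coefficients of variation of 29.7% and 54.8%. The within-strain log2 SD of 0.597 was larger than that of 82.1% of all probe sets. The fold change was -0.16 (95% interval -0.89 to 0.56, adjusted p = 0.881). Its other probe set (192791_s_at) averaged 12.6 ± 6.25 in BW1940 and 11.2 ± 7.76 in LT186, had the opposite sign (0.12, adjusted p = 0.885) and was likewise highest on LT186 replicate 4, at 25.38.

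lin-46 had the same arrays on top. LIN-46, a gephyrin-like protein, acts after LIN-28 and limits HBL-1. The probe set 175684_at gave 39.02, 11.52, 26.88, 17.71 and 22.62 in BW1940, with replicate 1 highest. In LT186 it ranged between 13.77 and 47.64 with a median of 18.3, and replicates 2 and 4 reached 47.64 and 45.53 while the other 4 stayed at or below 21.80. Means were 23.6 ± 10.4 in BW1940 and 26.4 ± 15.9 in LT186 (SD, n = 5 and 6), and the fold change was -0.07 (standard error 0.30, adjusted p = 0.955). 175650_s_at followed it across arrays (r = 0.93, rho = 0.86), with 5.87 to 34.32 in BW1940 and 2.53 to 34.74 in LT186. Its fold change was -0.09 (standard error 0.37, adjusted p = 0.947).

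lin-41 behaved differently on its 2 probe sets. LIN-41 is the let-7 target that holds back LIN-29. 187703_s_at gave 152.44, 72.15, 90.78, 69.79 and 72.99 in BW1940, where replicate 1 stood far above the rest. LT186 ranged between 53.30 and 77.51 with a median of 73.5, and 5 of the 6 arrays lay between 72.65 and 77.51. The means were 91.6 ± 35.0 in BW1940 and 71.2 ± 9.0 in LT186 (SD, n = 5 and 6), and the fold change was 0.27 (standard error 0.19, adjusted p = 0.523). Without BW1940 replicate 1 it was 0.09. 175677_s_at gave 110.63, 34.55, 71.80, 47.15 and 73.03 in BW1940, and between 52.94 and 130.90 with a median of 84.9 in LT186, where replicates 2 and 4 were highest. It came out at -0.40, of opposite sign (standard error 0.28, adjusted p = 0.533). The probe sets correlated weakly across arrays (r = 0.37, rho = 0.53), and r was 0.66 when each strain's mean was first taken off. The sources used here do not say which transcripts each one reads.

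lin-29 was present in both strains at similar means. LIN-29 is the zinc finger factor at the end of the pathway. 175716_at gave 184.11, 113.96, 210.71, 134.67 and 142.89 in BW1940, with replicates 1 and 3 on top. LT186 ranged between 96.08 and 242.09 with a median of 141, led by replicates 2 and 4. The means were 157 ± 39.3 in BW1940 and 155 ± 56.1 in LT186 (SD, n = 5 and 6), and the fold change was 0.06 (95% interval -0.47 to 0.58, adjusted p = 0.950). 193019_s_at, which the annotation places on lin-29 under 2 gene identifiers, gave 103.02, 100.62, 134.48, 83.07 and 72.99 in BW1940 and between 12.86 and 118.50 with a median of 75.0 in LT186. LT186 replicate 5, at 12.86, was alone far below the rest. Its fold change, 0.50 (95% interval -0.32 to 1.33, adjusted p = 0.573), was the largest of the 15 and had the widest spread, a within-strain log2 SD of 0.685. Without that array it was 0.16.

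daf-12 had the same 4 highest arrays as hbl-1 and lin-46. 175665_at gave 208.93, 84.76, 164.92, 116.15 and 151.98 in BW1940, and between 94.20 and 236.37 with a median of 124 in LT186. LT186 replicates 2 and 4 read 227.11 and 236.37, and no other LT186 array exceeded 130.08. The means were 145 ± 47.4 in BW1940 and 153 ± 62.5 in LT186 (SD, n = 5 and 6), and the fold change was -0.04 (95% interval -0.65 to 0.57, adjusted p = 0.973). The second probe set, 192797_s_at, gave 20.55 to 25.39 in BW1940 and 8.98 to 35.92 in LT186 (fold change 0.11, adjusted p = 0.861). The third, 187714_at, was near the filter, with 6.10 to 13.88 in BW1940 and 5.36 to 13.80 in LT186 (fold change 0.02, adjusted p = 0.973). It did not follow the brightest probe set across arrays (r = -0.02, rho = 0.08).

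The brightest lin-42 probe set did not share these arrays. 179896_at gave 300.87, 280.98, 338.89, 427.40 and 417.31 in BW1940, and between 285.13 and 501.18 with a median of 321 in LT186. The highest LT186 arrays were replicates 3 and 5, at 501.18 and 455.43, and replicates 2 and 4 were at 296.29 and 293.36. The means were 353 ± 66.7 in BW1940 and 363 ± 93.0 in LT186 (SD, n = 5 and 6), with a fold change of -0.02 (standard error 0.19, adjusted p = 0.98). 176596_at gave -9.84, 20.40, 28.84, 22.10 and 34.44 in BW1940 and 19.24 to 24.68 in LT186. Its fold change was -0.21 (standard error 0.32, adjusted p = 0.834) and became 0.16 without BW1940 replicate 1, the array below 0. With 1 added before the log in place of 10 it was -0.73 (adjusted p = 0.736, limma).

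**Figure D3:**
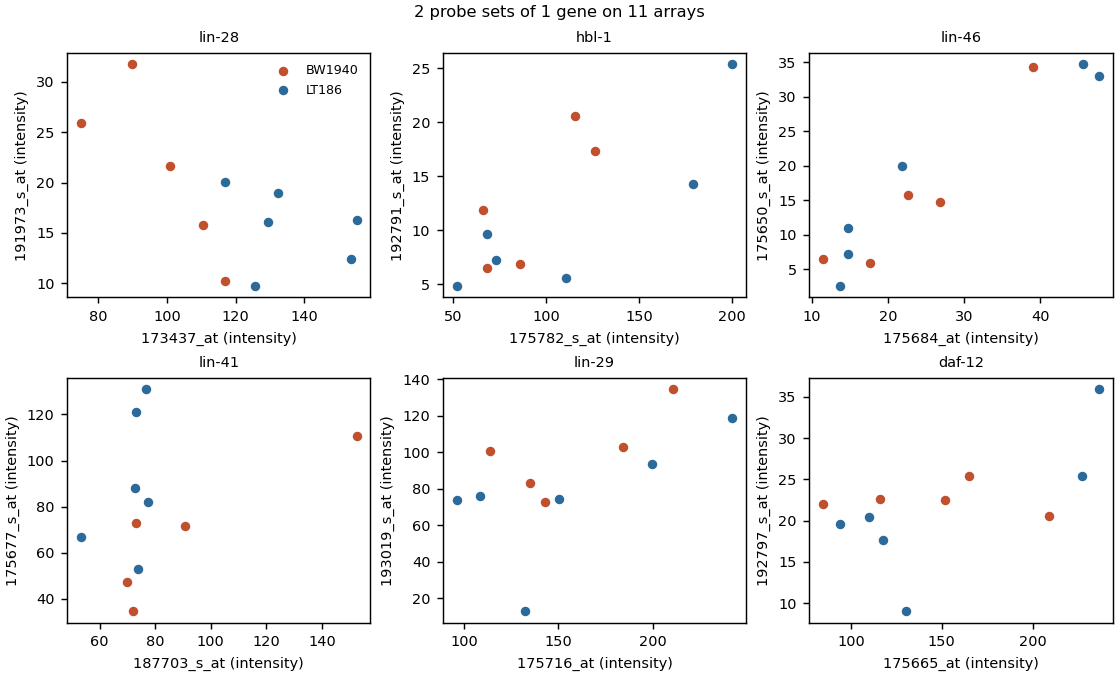
Intensity of the brightest probe set (horizontal axis) against the next one (vertical axis) of 6 heterochronic genes; each point is 1 of 11 arrays, BW1940 or LT186. The lin-46 probe sets rise together (r = 0.93), those of lin-28 run opposite ways (r = -0.67), and LT186 replicate 5 lies alone at 12.86 for the second lin-29 probe set.

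A group of 4 genes ranked the arrays alike. The brightest probe sets of hbl-1, lin-46, lin-29 and daf-12 all had the same 4 highest arrays, BW1940 replicates 1 and 3 and LT186 replicates 2 and 4, as did the second hbl-1 probe set. These are the 4 arrays of lowest sperm score, with scores of 7.04 and 7.82 in BW1940 and 5.61 and 5.32 in LT186. Of all probe sets tested, 1279 (6.8%) had these 4 arrays as their highest, and 1784 (9.49%) had them as their lowest. For both lin-41 probe sets and the second probe sets of lin-46, lin-29 and daf-12, 3 of the 4 highest arrays were among them. The brightest lin-28 probe set had 2 of its 4 highest among them. The brightest lin-42 probe set had none, and the second lin-42 probe set had 2. The oocyte and adult marker score was 6.41 and 5.56 on BW1940 replicates 1 and 3 and 5.19 and 5.29 on LT186 replicates 2 and 4, and between 5.96 and 8.87 on the other 7 arrays. The part of the sperm and oocyte scores in this order was not tested. The set of 4 arrays was picked after the values were seen.

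**Figure D4:**
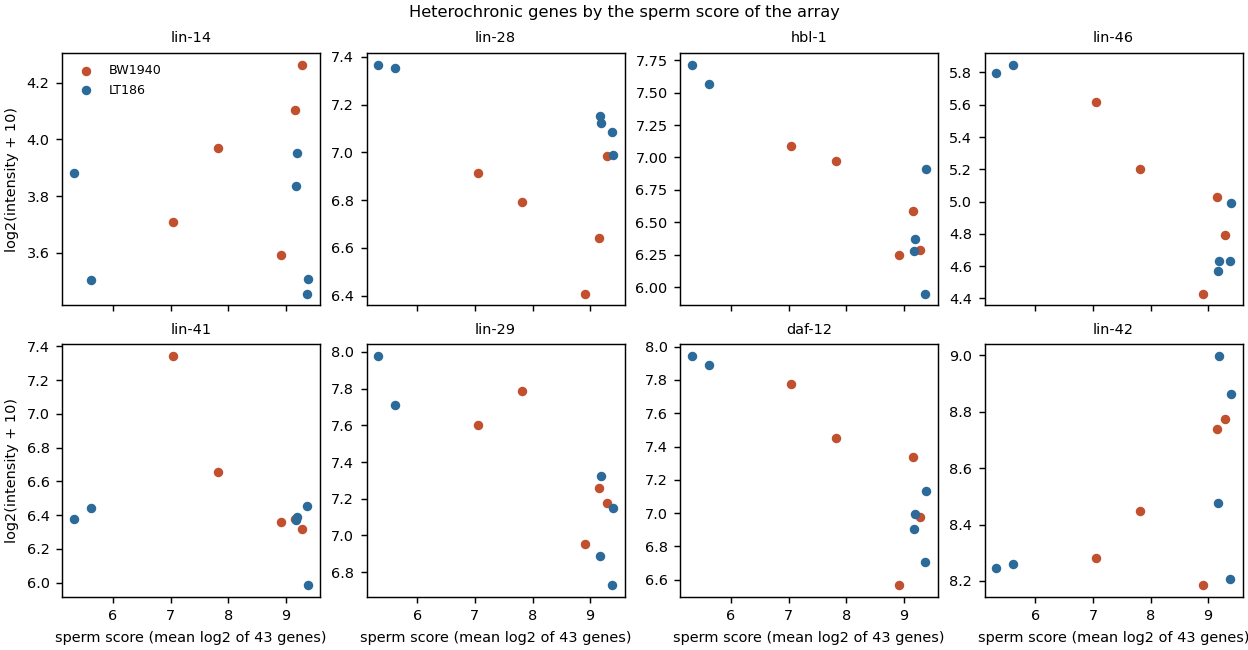
Log2(intensity + 10) of the brightest probe set of each heterochronic gene (vertical axis) against the sperm score of the array (horizontal axis, mean log2 value of 43 sperm genes); points are the 5 BW1940 and 6 LT186 arrays. For hbl-1, lin-46, lin-29 and daf-12 the 4 arrays with scores between 5.32 and 7.82 are the highest, and for lin-42 none of these 4 is among the 4 highest.

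Across the 11 arrays, correlations between the brightest probe sets of these 4 genes were high. Values below are for the brightest probe set of each gene unless another is named. On each array all genes share 1 hybridization and 1 scaling, and 4 of the arrays stand apart in sperm score. lin-46 and daf-12 had r = 0.98 (rho = 0.95), hbl-1 and lin-46 r = 0.94 (rho = 0.91), and hbl-1 and daf-12 r = 0.94 (rho = 0.98). lin-29 had r = 0.90 with hbl-1, 0.87 with lin-46 and 0.91 with daf-12 (rho = 0.90, 0.80 and 0.90). Over the 7 arrays left without the 4 named above, the 6 values of r lay between 0.54 and 0.90, the highest being lin-46 with daf-12. The brightest probe sets of lin-42 and lin-41 changed sign in r. Over all 11 arrays lin-42 had r between -0.33 and -0.14 with the 4 genes, but rho only between -0.11 and 0.04. Over the 7 arrays its r was between 0.62 and 0.89 (rho 0.46 to 0.79), the highest r with lin-29. The brightest lin-41 probe set had r between 0.20 and 0.41 with the 4 genes over 11 arrays (rho 0.33 to 0.45). Over 7 its r was between -0.84 and -0.29, with a weaker rho of -0.43 to -0.07. These 7 include LT186 replicate 5, its lowest array at 53.30. The other lin-41 probe set, 175677_s_at, had r between 0.54 and 0.80 with the 4 genes over 11 arrays (rho 0.40 to 0.69). For that one, r over the 7 arrays was not computed. lin-28 had r between 0.33 and 0.48 with the 4 genes over 11 arrays, between 0.53 and 0.69 when each strain's mean was first taken off, and between -0.11 and 0.14 over 7.

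The genes whose pattern was most like each member were found by Pearson r of log2 values over the 11 arrays. For lin-28 they were fli-1 (r = 0.98, rho = 0.97), fbf-2 (r = 0.98, rho = 0.93) and B0361.9 (r = 0.97, rho = 0.92). For hbl-1 they were ceh-34 (r = 0.99, rho = 0.98), snf-3 (r = 0.98, rho = 1) and cyp-13A10 (r = 0.98, rho = 0.95). lin-46 was most like ham-1, F36G9.3 and clc-6 (each r = 0.99; rho = 0.95, 0.97 and 0.96). daf-12 was closest to F54G2.1 (r = 0.99, rho = 0.97), T01D3.3 (r = 0.98, rho = 0.96) and lin-46 itself. lin-29 came closest to Y15E3A.4 (r = 0.97, rho = 0.98), acr-24 (r = 0.95, rho = 0.94) and srbc-58 (r = 0.95, rho = 0.93). For lin-42 the nearest were F14E5.2 (r = 0.90, rho = 0.85), cht-1 (r = 0.89, rho = 0.76) and B0034.5 (r = 0.86, rho = 0.85). lin-41 had nhr-239 (r = 0.95, rho = 0.69), fbxc-50 (r = 0.90, rho = 0.47) and F28B4.1 (r = 0.90, rho = 0.64), where the lower rho goes with the 1 high BW1940 array. lin-14, read near the floor, had fbxc-33 (r = 0.86, rho = 0.91), fbxa-81 (r = 0.83, rho = 0.80) and C06E4.5 (r = 0.81, rho = 0.91).

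The genes around the pathway did not pass the test either. In 5 lists, with each gene taken by its brightest probe set, 0 genes passed by limma (background 1.02%) or by the equal-variance test. As shares to set beside each list below, 60.7% of all probe sets had a positive fold change and 16.7% an unadjusted p under 0.05. The microRNA genes lin-4, let-7, mir-48, mir-84 and mir-241 were not matched to a probe set, so that the regulators of lin-14, hbl-1 and lin-41 were not measured here. The microRNA machinery list, which held genes such as alg-1 and dcr-1 and also puf-9 and lin-66, had 14 tested genes. Of these 8 were positive, the median was 0.03 and none had an unadjusted p under 0.05. The smallest p-values were those of pup-2, a poly(U) polymerase gene (43.1 ± 15.7 in BW1940 and 65.9 ± 26.1 in LT186, fold change -0.51, adjusted p = 0.339), and drsh-1, the Drosha gene (46.5 ± 8.53 in BW1940 and 56.2 ± 10.4 in LT186, fold change -0.23, adjusted p = 0.497).

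The partners and the hormone branch held 19 tested genes, 9 of them positive, with a median of -0.03. An unadjusted p under 0.05 was found for tim-1 and daf-36. tim-1, related to the clock gene timeless, gave 36.3, 49.4, 41.4, 35.9 and 29.8 in BW1940 and 42.9 to 70.7 with a median of 53.0 in LT186 (fold change -0.44, adjusted p = 0.173). daf-36, a Rieske oxygenase gene of dafachronic acid synthesis, gave 109.0, 86.3, 120.6, 71.2 and 74.6 in BW1940 and 39.6 to 84.6 with a median of 62.9 in LT186. The fold change was 0.51 (adjusted p = 0.235), the strains overlapped, and with the sperm score as a covariate it passed at 0.58 (adjusted p = 0.0292). Under that setting 1612 of all 18801 probe sets passed, against 191 without the covariate. daf-9, the cytochrome P450 gene of the last step to the DAF-12 ligand, was chosen after its values were seen. It gave 42.9, 10.5, 22.8, 13.6 and 18.8 in BW1940 and 10.8 to 58.0 with a median of 18.1 in LT186, where replicates 2 and 4 read 49.7 and 58.0. Its fold change was -0.18 (adjusted p = 0.878), and its highest arrays were those of its receptor gene daf-12.

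**Figure D5:**
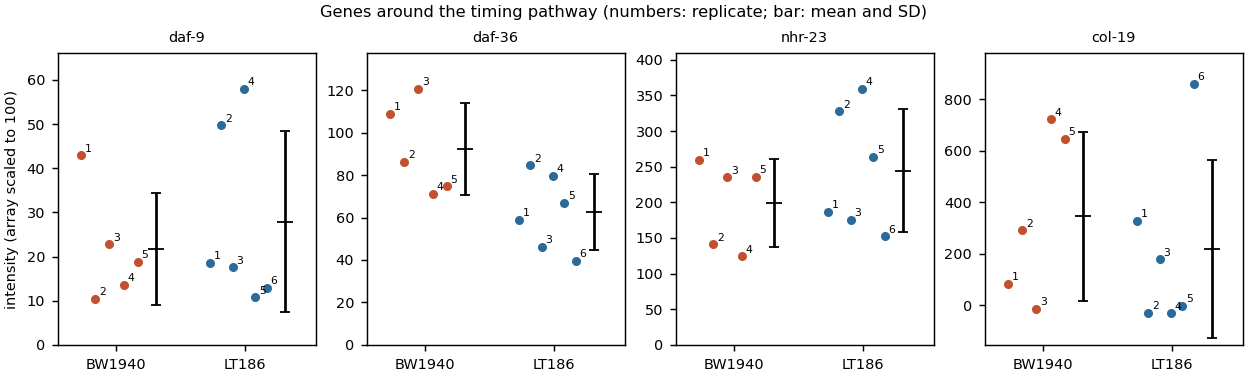
Intensity (vertical axis, arrays scaled to 100) of daf-9, daf-36, nhr-23 and col-19 on each array, BW1940 left and LT186 right, with replicate numbers and the mean with its SD as a bar. daf-9 and nhr-23 are highest on LT186 replicates 2 and 4, where col-19 lies below 0, at -29.3 and -30.7.

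No seam or epidermal fate gene passed the test. Of 15 tested, 6 were positive, the median was -0.04, and 1, wrm-1, had an unadjusted p under 0.05. wrm-1, a beta-catenin gene of asymmetric division, was at 35.9 ± 9.82 in BW1940 and 54.4 ± 13.2 in LT186 (SD, n = 5 and 6; fold change -0.49, adjusted p = 0.236), and elt-1, a GATA factor gene of the epidermis, at 99.1 ± 13.8 in BW1940 and 79.2 ± 13.7 in LT186 (fold change 0.30, adjusted p = 0.317). nhr-23, the molting receptor gene, was chosen after its values were seen. It gave 124.3 to 259.5 in BW1940 and 152.4 to 359.0 in LT186, where replicates 2 and 4 were highest, at 327.5 and 359.0 (fold change -0.27, adjusted p = 0.702).

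Of the 5 lists, cuticle and molt genes varied most within the strains. Their median within-strain log2 SD was 1.02 over 21 genes, against 0.314 over all probe sets. Positive fold changes were found for 18 of 21, with a median of 0.21, and 1 had an unadjusted p under 0.05. col-17 averaged 2454 ± 493 in BW1940 and 1814 ± 402 in LT186 (fold change 0.44, adjusted p = 0.255), and rol-6 averaged 925 ± 359.9 in BW1940 and 584 ± 283 in LT186 (0.72, adjusted p = 0.389). col-19, the adult collagen gene that LIN-29 switches on, varied widely within both strains. It gave 83.6, 291.5, -13.4, 721.2 and 645.1 in BW1940, and 327.0, -29.3, 177.9, -30.7, -2.3 and 857.9 in LT186 replicates 1 to 6. It was thus below 0 on BW1940 replicate 3 and on LT186 replicates 2, 4 and 5. The strains overlapped (fold change 1.45, standard error 1.5, adjusted p = 0.713).

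Reported targets of the let-7 family and of LIN-41 outside the group gave 11 tested genes, 6 of them positive, with a median of 0.08 and none at an unadjusted p under 0.05. The smallest p-values were those of dmd-3 (18.7 ± 6.23 in BW1940 and 12.1 ± 9.26 in LT186, fold change 0.42, adjusted p = 0.523) and pha-4 (46.0 ± 12.4 in BW1940 and 35.5 ± 13.3 in LT186, fold change 0.32, adjusted p = 0.555). dmd-3 is a DM-domain factor gene of male tail shaping, and pha-4 is the FoxA gene of the pharynx.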

How the data were processed

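RNA of whole L4 animals was measured on Affymetrix C. elegans arrays, 5 of BW1940 and 6 of LT186. The authors deposited intensity estimates (linear scale). Probe intensities came from Microarray Suite (MAS5, version 5 per the labels). Probe Profiler made 1 value per probe set from them, gave less weight to probe pairs without information, and brought each array to a common scale of 100. The authors' removal of absent genes was not applied to this table. No genome build is named in the sources used here, and no sequence of a member is printed.

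Probe sets were named from the platform's annotation: of 22548, 895 had no gene symbol, 843 had several and 20810 had 1, of which 20701 matched the WBcel235 gene table by gene ID. Values below 0 were set to 0, 10 was added and log2 was taken, so that changes of dim genes are understated. Tested were the 18801 probe sets reaching 10 on 2 or more of the 11 arrays, with limma 3.58.1 in R 4.3.3 (lmFit, eBayes), without block or covariate, and with Benjamini-Hochberg adjustment over all of them, with a threshold of 0.05. Every adjusted p is from limma unless another source is named. Single values were also tested by an exact two-sided permutation test of the difference of mean log2 values. Summaries were made with scipy 1.17.1, pandas 2.3.3 and numpy 2.4.6 under Python 3.11.15. The number of arrays limits the precision. P-values measure the spread between arrays labeled as biological replicates.

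The members and the gene lists were chosen with earlier results of these data known. Named are the 8 members, in each list the genes that passed or else the 2 of smallest p, col-19, the 3 genes most like each member, and sma-6 and dbl-1; for any other gene the text says that its values had been seen. As alternatives, other offsets, filters and scalings were tried, with a replicate block, an equal-variance test of each probe set alone on the same log2 values, array weights, the sperm score as a covariate, arrays left out or averaged, and the other probe sets of a gene. The study's own modified test in Probe Profiler was not run here.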

Additional observations from a re-analysis of the deposited data

Results flagged for a closer look

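Among 34 strain groups of member probe sets, 2 held an array that stood apart from the rest, and chance alone flags about 1 in 20. Both concern lin-41 187703_s_at. BW1940 replicate 1 read 152, and its gap to the next array was 0.746 of the range of its strain. LT186 replicate 5 read 53.3, the lowest of its strain, with a gap of 0.799 of the range. On the other lin-41 probe set the same arrays read 110.63 and 66.74 and did not stand apart.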

How the results depend on the processing

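No heterochronic probe set passed an adjusted p of 0.05 under any of 23 settings, and 297 of 341 values kept their sign. All signs were kept by both tested lin-28 probe sets, both lin-41 probe sets, hbl-1 192791_s_at and lin-29 193019_s_at. The brightest lin-28 probe set ran between -0.49 and -0.32 over all settings. The number of arrays, and the spread of those of low sperm score, limit these values, and the cause of each change below was not tested.

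The sign turned with array weights for hbl-1 175782_s_at (0.14), lin-46 175684_at (0.19) and 175650_s_at (0.20) and daf-12 175665_at (0.19). Without the 3 arrays of lowest sperm score it turned for the same probe sets (0.14, 0.16, 0.077 and 0.15) and for lin-42 176596_at (0.18), and with LT186 replicates 2 and 4 averaged for these 4 again (0.0046, 0.084, 0.064 and 0.092). With the sperm score as a covariate it turned for the lin-46 probe sets (0.065 and 0.051) and daf-12 175665_at (0.079). daf-12 187714_at turned under quantile normalization (-0.067) and median centring (-0.031). By another probe set, lin-28 was 0.25, hbl-1 0.12, lin-41 -0.40 and daf-12 0.11 or 0.020.

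With 1 array left out, values ran between -0.33 and 0.020 for hbl-1 175782_s_at, -0.22 and 0.089 for lin-46 175684_at, -0.32 and 0.070 for lin-46 175650_s_at, -0.056 and 0.19 for lin-29 175716_at, -0.18 and 0.12 for daf-12 175665_at, -0.028 and 0.23 for daf-12 192797_s_at, -0.059 and 0.087 for daf-12 187714_at, -0.095 and 0.075 for lin-42 179896_at and -0.37 and 0.16 for lin-42 176596_at.

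Over all probe sets, 191 passed (129 higher in BW1940), 366 with an offset of 50, 416 without a filter, 381 by the equal-variance test of each probe set alone, 443 with array weights, 1612 with the sperm score as a covariate (752 higher), 83 without the 3 arrays and between 78 and 151 with 1 array left out. Quantile normalization gave 176 (86 higher) and median centring 148 (71 higher). In the lists, 0 of 77 genes passed, and 2 of 77 with the sperm covariate. These were daf-36 and col-38 (0.55, adjusted p = 0.0483), a cuticle collagen gene named after its values were seen.

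The replicate numbers did not pair the arrays: deviations of same-numbered arrays correlated at -0.69, -0.64, -0.30, -0.59 and 0.10. With the replicate block 5 probe sets passed, lin-28 173437_at was -0.45 (adjusted p = 0.543), and lin-29 175716_at turned to -0.056.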
